A study of Drosophila melanogaster with 6 samples.

Results

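The genes described here encode subunits of the vacuolar proton ATPase of the fruit fly Drosophila melanogaster. They were chosen by name, as every gene whose current symbol starts with Vha and that the array's annotation pairs with a probe set of that gene alone. This gave 29 genes of 10844 named on the array, and 3 of them, Vha16-1, VhaPPA1-1 and VhaSFD, had 2 probe sets each, of which the brighter on average was used. The current RefSeq gene table holds 33 genes of this name. The other 4, Vha68-1, Vha68-2, Vha100-3 and Vha16-3, were not analysed here, so Vha68-1 and Vha68-2, genes of the catalytic A subunit, have no value below.

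The vacuolar ATPase is a rotary pump that spends ATP to move protons into lysosomes, endosomes, secretory granules and synaptic vesicles, and in some insect epithelia out across the cell surface. Its V1 part lies in the cytosol and splits ATP, its V0 part lies in the membrane and carries the protons, and the enzyme can be switched off by pulling the parts apart. In neurons the proton gradient drives the loading of transmitters, GABA among them, into synaptic vesicles. Several subunits are encoded by more than 1 gene in the fly.

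Total RNA from sorted cells was measured on 6 one-colour arrays. All cells came from material carrying the red fluorescent protein dsRed1 fused directly to 2.1 kb of the promoter of Gad1, whose enzyme makes GABA. The groups were the fluorescent fraction of larval brain and ventral nerve cord (LB_pos, 1 array), the cells of that tissue sorted as non-fluorescent (LB_neg, 1 array) and the fluorescent fraction of cultured embryonic cells (EC_pos, arrays a to d). Strain, larval age, culture time and any pooling are not given in the labels, and larval origin and intact tissue differ together from embryonic origin and culture, so these cannot be told apart. The labels do not tell separate cultures from repeats of 1 culture in EC_pos, so p-values reflect the scatter of these arrays alone, which may be technical.

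Gad1 itself was dim, at 54.8 on LB_pos, 22.0 on LB_neg and between 22.2 and 39.0 in EC_pos, all below or near 53.6, the 25th percentile of all intensities. Intensities had been scaled per array before deposit, and differences below are of log2(intensity + 53.6), a scale that makes changes of dim genes look smaller. A gene was tested where its probe set exceeded the overall median intensity of 197.35 on at least 1 array, which held for 7892 named genes. EC_pos array a stood apart, correlating over the tested probe sets with r between 0.588 and 0.707 with arrays b, c and d, which reached 0.908 to 0.944 among themselves. Its ratio of 3' to 5' probe sets for the glycolytic enzyme GAPDH was 866, against at most 42.4 on the other arrays. Calls of Vha genes against the culture are therefore given with and without it. Those of marker and partner genes on LB_neg are given without it only. The number of arrays limits the precision.

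Of the 29 Vha genes, 22 were bright enough to test. These included 8 of 11 V1 genes, 12 of 16 V0 genes and both accessory genes. The filter was passed through LB_pos alone by Vha16-4 and through EC_pos alone by Vha100-5, VhaPPA1-2 and VhaM9.7-d. A difference of these genes between the groups was thus partly set by the filter. For VhaPPA1-2 and VhaM9.7-d, array a was the only array above the filter.

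**Figure D1:**
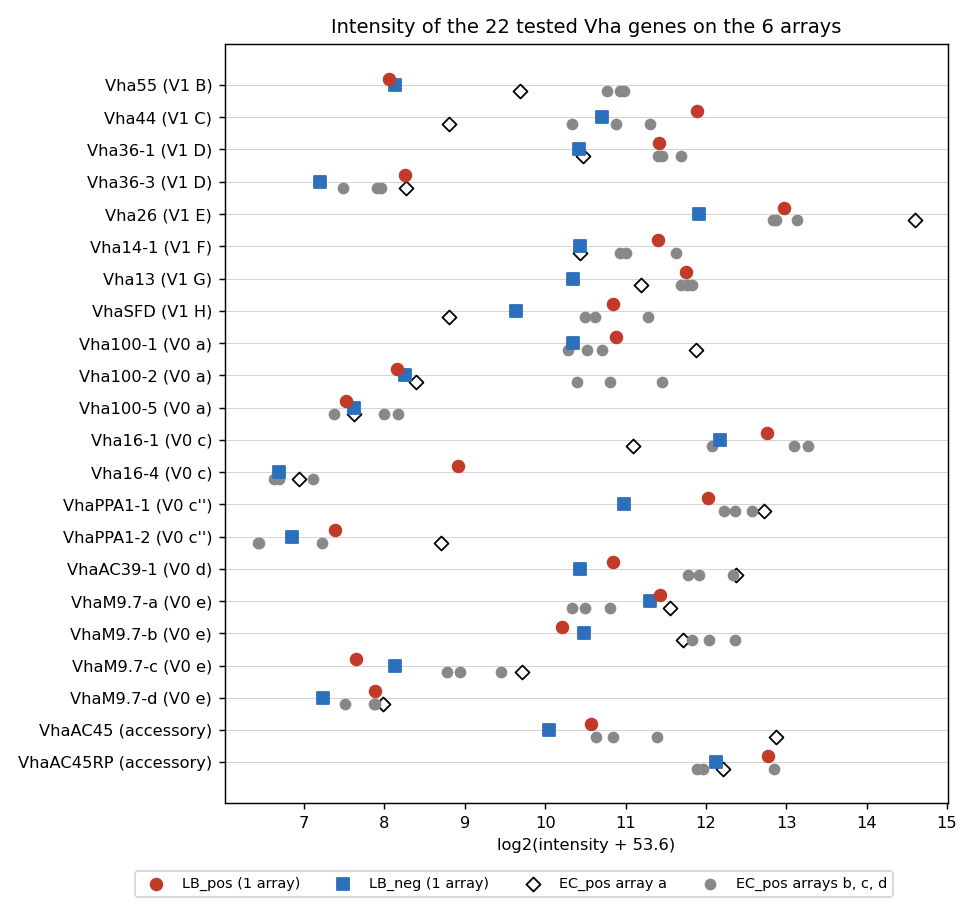
Log2 intensity (x axis, log2 of intensity plus 53.6) of the 22 tested Vha genes (rows, with part and subunit of the pump) on LB_pos (red circles), LB_neg (blue squares) and the EC_pos arrays (open diamond for array a, grey circles for b, c and d). LB_neg lies left of all 4 EC_pos arrays for 13 genes and LB_pos for 7, among them Vha55 and Vha100-2.

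Within the larval nervous system, most subunit genes were brighter in the fluorescent than in the non-fluorescent fraction, among them 7 of 8 tested genes of the cytosolic V1 part, 8 of 12 of the V0 part and both accessory genes. Of the 22 tested Vha genes, 17 had a higher value on LB_pos, where 55.1% of tested genes did, and 8 were higher by at least 1 log2 unit, a size reached by 11% of tested genes. The 8 include Vha16-4, which passed the filter through LB_pos alone. None of the 22 was lower by at least 1 log2 unit, against 7.64% of tested genes. The median difference was 0.62 for the Vha genes and 0.09 for all tested genes. Over all 29 genes without the filter it was 0.54 against 0.14, and 9 reached 1 unit, against 10.8% of named genes. Each fraction was 1 array, so these differences have no test and no replicate check.

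The V1 genes had a median difference of 1.05, with 6 of 8 at or above 1 unit. Vha13, subunit G of the outer stalk that holds the head still, was at 3403 on LB_pos and 1243 on LB_neg, a log2 difference of 1.41. Vha26, subunit E of the same stalk, was at 7939.7 on LB_pos and 3812 on LB_neg, a difference of 1.05. Vha36-1, subunit D of the turning central shaft, was at 2686.5 on LB_pos and 1312 on LB_neg, a difference of 1.00. All 3 LB_pos values lay inside the range of the EC_pos arrays, and the LB_neg values lay below every EC_pos array. For Vha13 the EC_pos intensities were 2286, 3563, 3249.5 and 3412 on arrays a to d. For Vha36-1 they were 1365, 3262, 2652 and 2755 on these arrays, so array a was the lowest for both genes.

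Vha14-1, subunit F of the shaft, was at 2663 on LB_pos and 1324 on LB_neg, a difference of 0.98, with 1329, 3112, 1898 and 2005 in EC_pos. Vha44, subunit C, which joins the head to the membrane part and leaves when the pump is taken apart, was at 3723 on LB_pos and 1617.5 on LB_neg, a difference of 1.18. VhaSFD, subunit H, which in yeast keeps free V1 from splitting ATP, was at 1785 on LB_pos and 743.5 on LB_neg, a difference of 1.21. The EC_pos arrays ran from 392 to 2441 for VhaSFD and from 394 to 2484.5 for Vha44, with array a the lowest for both. The other VhaSFD probe set gave a smaller larval difference of 0.34, at 814 on LB_pos and 631 on LB_neg. Vha36-3, a paralog of Vha36-1, was dim, at 251 on LB_pos, 93.0 on LB_neg and 254, 186, 196 and 125 in EC_pos (larval difference 1.06).

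Vha55, the only gene of subunit B and thus of the nucleotide-binding head that was tested, departed from the rest of V1. It was at 214 on LB_pos and 228 on LB_neg, a difference of -0.07. On the probe sets used, the other 7 tested V1 genes lay between 0.98 and 1.41, while the other VhaSFD probe set gave 0.34. When arrays were given a common median, Vha55 was at -0.34 and these 7 genes ran from 0.65 (Vha14-1) to 1.08 (Vha13). Whether Vha55 differs from these genes was not tested.

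The V0 genes were more mixed, with a median difference of 0.47 over 12 genes. VhaPPA1-1, the c'' proteolipid of the proton-carrying ring, was at 4126 on LB_pos and 1966 on LB_neg (difference 1.05). Its other probe set was dimmer and went the other way, at 234 on LB_pos and 387 on LB_neg (-0.62), so the direction for this gene depends on the probe set. Vha16-1, the main c proteolipid of the ring, was at 6878 on LB_pos and 4564 on LB_neg (0.59). Its other probe set was dim, at 141 on LB_pos and 135 on LB_neg (0.04).

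Among the genes of subunit a, the large membrane subunit that forms the proton path, Vha100-1 was at 1830.4 on LB_pos and 1245 on LB_neg (difference 0.54). Vha100-1 is the form known from fly synaptic vesicles. Vha100-2 was at 232 on LB_pos and 252.5 on LB_neg (-0.10), and Vha100-5 at 129 on LB_pos and 143.5 on LB_neg (-0.11). Only the first of these 3 thus had a higher value on LB_pos, by 0.54. For Vha100-1 the range was 0.42 between EC_pos arrays b, c and d and 1.58 with array a included. When arrays were given a common median, its larval difference was 0.21.

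VhaAC39-1, subunit d, which couples the shaft to the ring, was at 1786 on LB_pos and 1330.3 on LB_neg (0.41). The genes of the small membrane subunit e did not move together. VhaM9.7-a was at 2711 on LB_pos and 2473 on LB_neg (0.13), VhaM9.7-b at 1126 on LB_pos and 1371.5 on LB_neg (-0.27), and VhaM9.7-c at 147 on LB_pos and 228 on LB_neg (-0.49). The dim VhaM9.7-d was at 182 on LB_pos and 96.4 on LB_neg (0.65), with 199, 179.9, 182 and 129 in EC_pos. The accessory genes, named for the lumenal AC45 protein that helps to assemble and guide the pump, were both higher on LB_pos. VhaAC45 was at 1469 on LB_pos and 1007 on LB_neg (0.52), and the related VhaAC45RP at 6935 on LB_pos and 4406 on LB_neg (0.65). For VhaAC45RP both larval values lay inside the culture's range, with 4701, 7331, 3753 and 3934 on arrays a to d.

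**Figure D2:**
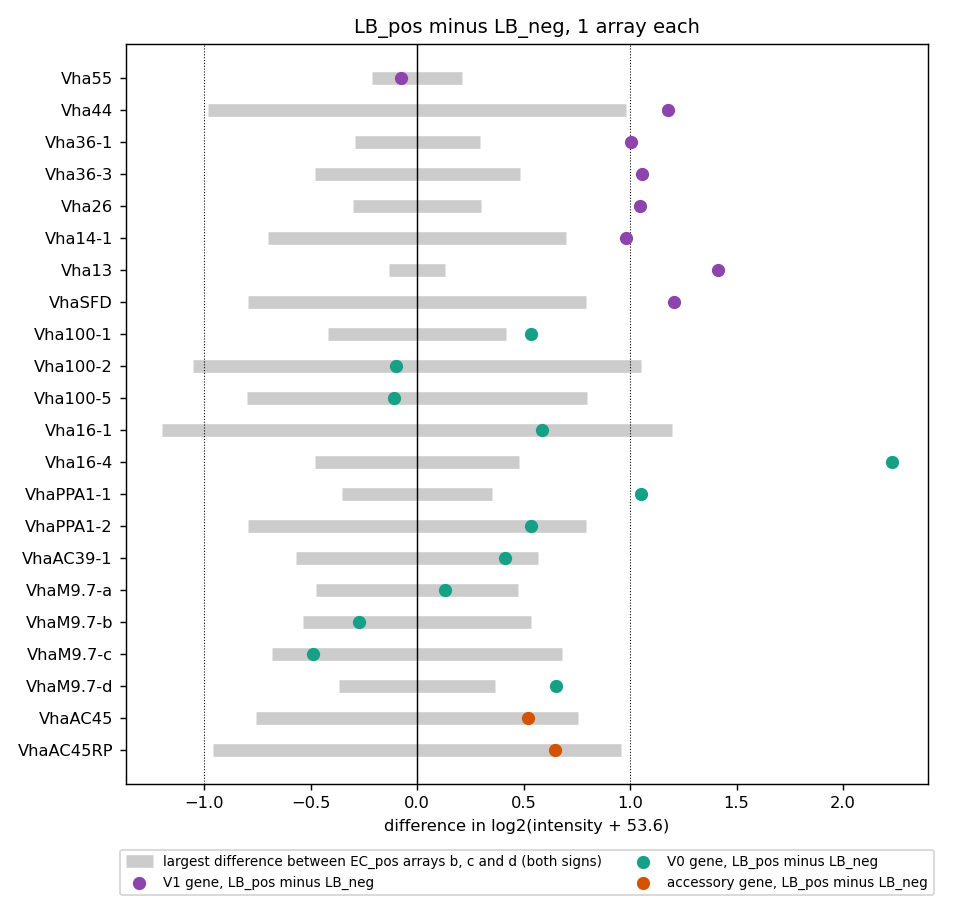
LB_pos minus LB_neg for the 22 tested Vha genes (x axis, difference in log2 of intensity plus 53.6), coloured by part of the pump. Grey bars span, in both signs, the largest difference between EC_pos arrays b, c and d, and dotted lines mark 1 log2 unit. 11 genes lie right of their grey bar and 0 lie left of it.

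The difference was larger than the range of arrays b, c and d for 11 of 22 Vha genes, all of them higher on LB_pos, and 23.1% of tested genes were higher by more than that range. With array a included in the range this left 5 genes, Vha13, VhaPPA1-1, Vha36-3, VhaM9.7-d and Vha16-4, against 10.4% of tested genes. Vha16-4, in both counts, passed the filter through LB_pos alone, so its direction was set in part by the filter. The other probe set of VhaPPA1-1 had the opposite sign (-0.62). Pairs among arrays b, c and d had 0 to 2 Vha genes at least 1 unit apart and pairs with array a 9 to 12. Of all tested genes, 7.06% to 12.5% were that far apart in the pairs among b, c and d and 39.2% to 46.2% in the pairs with array a. The size of the larval difference also depended on scaling. When arrays were given a common median, 2 Vha genes, Vha13 and Vha16-4, stayed above 1 unit, against 6.65% of tested genes. Of these, Vha16-4 entered the test through LB_pos alone. The Vha median was then 0.32 where that of all tested genes was -0.20. After quantile normalization 8 genes, Vha16-4 among them, were above 1 unit, against 7.98% of tested genes.

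Other measurements differed between these fractions as well. The geometric mean of the hybridization controls was 7382 on LB_pos and 2527 on LB_neg. As a sign of RNA quality, 3' over 5' signal was 40.1 on LB_pos and 120.3 on LB_neg for eIF4a, 8.898 on LB_pos and 19.5 on LB_neg for GAPDH, and 58.3 on LB_pos and 29.5 on LB_neg for actin. Of 6 neuroblast markers, 5 were lower on LB_pos by at least 1 unit, with a summed intensity of 3607 on LB_pos and 11440.1 on LB_neg. The 5 include ase, which passed the filter through LB_neg alone. Of 7 tested neuron markers, 3 were higher by at least 1 unit (Rdl, ChAT and nSyb) and 1, elav, was lower. Of 6 epidermis and trachea markers, 2 were higher by that much (kkv by 1.91 and serp by 1.87) and 1 was lower. Of the tested markers of other cells, 1 of 7 for glia, 3 of 5 for hemocytes and 1 of 4 for muscle were lower and 0 of each higher, 1 of 2 for testis (dj) was higher, and 0 of 3 for fat body and 0 of 2 for Malpighian tubule differed by that much. The summed intensity of the 10 neuron markers on the array was 16088 on LB_pos and 12378 on LB_neg. The largest gap among them was that of Rdl, at 5595 on LB_pos and 301 on LB_neg. Against the direction of the sum, elav was at 1541 on LB_pos and 4940 on LB_neg, and Csp at 4038 on LB_pos and 5354 on LB_neg. All the rest were higher on LB_pos. The part of any of these measurements in the Vha differences was not tested. In bulk RNA, more cells of a type and more RNA per cell cannot be told apart.

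Set against the cultured embryonic cells, some pump genes were dimmer on both larval arrays and others on LB_neg. Vha55, Vha100-2 and VhaM9.7-b were lower on both larval arrays, with log2 differences between -2.83 and -1.60 without array a. Vha26, Vha36-1, Vha13, VhaPPA1-1 and VhaAC39-1 were called lower on LB_neg and not on LB_pos without array a, and whether the fractions differ in this was not tested. With all 4 EC_pos arrays none of these 8 genes was called on either larval array. LB_pos was below all 4 EC_pos arrays for 7 of 22 Vha genes (19.9% of tested genes), and LB_neg for 13 of 22 (25.6%). For the same 7 genes both larval arrays lay below the culture (15.1% of tested genes). The 13 genes include VhaM9.7-d, which passed the filter through EC_pos alone. For 2 of them LB_neg was only just below array a, the lowest EC_pos array. These were Vha14-1, at 1324 on LB_neg and 1329 on array a, and Vha36-1, at 1312 on LB_neg and 1365 on array a. The median LB_pos difference was 0.11 for the Vha genes and 0.21 for all tested genes, and without array a 0.0094 and 0.24. The median LB_neg difference was -0.68 for the Vha genes and 0.10 for all tested genes, and without array a -0.83 and 0.13. Both comparisons share the EC_pos arrays.

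With all 4 EC_pos arrays, limma called 0 of 22 Vha genes at an adjusted p under 0.05 on LB_pos, against 0.038% of tested genes, and 0 of 22 on LB_neg, against 0.545%. At an unadjusted p under 0.05, 4 Vha genes passed on LB_pos and 5 on LB_neg (13.8% and 18.2% of tested genes). Without array a, limma called 4 Vha genes on LB_pos, 3 lower and 1 higher (Vha16-4, which passed the filter through LB_pos and so had to be high there), where 14.6% of tested genes were called, 9.3% as lower and 5.28% as higher, and 8 on LB_neg, all lower, where 24.2% were called and 13.3% were called lower. The count on LB_pos, at 18.2% of the Vha genes, was near the background, and that on LB_neg was 36.4%. Without b, c or d in turn, 0 were called each time. The larval groups had 1 array each and were assumed to vary like EC_pos, and the use of arrays b, c and d alone was chosen knowing that array a stands apart.

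Vha55 had the lowest LB_pos difference of the 22 Vha genes. It was at 214 on LB_pos and 228 on LB_neg, against 768, 1901, 1962 and 1686 on EC_pos arrays a to d, so both larval arrays lay below every culture array. Without array a the LB_pos difference was -2.83 ± 0.34 (SE, limma adjusted p = 0.00159) and the LB_neg difference -2.76 ± 0.34 (limma adjusted p = 0.00112). With all arrays these were -2.53 ± 0.64 (limma adjusted p = 0.189) and -2.45 (limma adjusted p = 0.125).

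Vha100-2 was at 232 on LB_pos and 252.5 on LB_neg, against 282, 1298, 1739 and 2748 on EC_pos arrays a to d. Array a thus lay close to the larval values and the other culture arrays far above them. Without array a the LB_pos difference was -2.73 ± 0.45 (limma adjusted p = 0.00639) and the LB_neg difference -2.63 ± 0.45 (limma adjusted p = 0.00493), and with it the adjusted p-values were 0.451 and 0.404. Its paralog Vha100-1 was at 1830.4 on LB_pos and 1245 on LB_neg, against 3699, 1618, 1198 and 1412 in EC_pos. For this gene LB_pos lay inside the culture's range, with an LB_pos difference of 0.37 ± 0.33 without array a (limma adjusted p = 0.461) and 0.03 ± 0.70 with it (limma adjusted p = 0.989). Whether the paralogs differ in their response was not tested.

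Among the genes of subunit e, VhaM9.7-b was at 1126 on LB_pos and 1371.5 on LB_neg, against 3299, 4166, 3579 and 5214 in EC_pos. Array a lay close to the others here, and no larval value overlapped the culture arrays. The LB_pos difference was -1.87 ± 0.33 (limma adjusted p = 0.0086) without array a and -1.78 ± 0.53 (limma adjusted p = 0.261) with it. The LB_neg difference was -1.60 ± 0.33 (limma adjusted p = 0.0107) without array a and -1.51 ± 0.53 (limma adjusted p = 0.215) with it. VhaM9.7-c was also below all culture arrays, at 147 on LB_pos and 228 on LB_neg, against 782, 648, 384 and 439 in EC_pos, but missed the threshold without array a (LB_pos difference -1.41, limma adjusted p = 0.0639, and -1.57, limma adjusted p = 0.313 with it). VhaM9.7-a had the opposite sign, at 2711 on LB_pos and 2473 on LB_neg against 2952.5, 1391, 1741 and 1239 in EC_pos, and was not called (0.89 on LB_pos, limma adjusted p = 0.109 without array a, and 0.63, limma adjusted p = 0.687 with it).

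VhaAC39-1 was at 1786 on LB_pos and 1330.3 on LB_neg, against 5232, 5136, 3449.8 and 3810.2 in EC_pos. Both larval arrays were again below the culture's lowest array. Without array a the LB_neg difference was called at -1.58 ± 0.33 (limma adjusted p = 0.0123), and the LB_pos difference of -1.17 ± 0.33 just missed (limma adjusted p = 0.0531). With array a these were -1.67 (limma adjusted p = 0.186) and -1.25 (limma adjusted p = 0.381). VhaAC45 lay below the culture arrays on both larval arrays as well, at 1469 on LB_pos and 1007 on LB_neg against 7433, 2622, 1785 and 1532 in EC_pos, and was not called (LB_neg -0.90, limma adjusted p = 0.125 without array a, and -1.38, limma adjusted p = 0.493 with it).

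Of the genes called lower on LB_neg and not on LB_pos, 4 were also at least 1 unit higher on LB_pos than on LB_neg, and both comparisons rest on the same LB_neg array. Without array a, Vha13 differed by -1.42 ± 0.29 on LB_neg (limma adjusted p = 0.0107), VhaPPA1-1 by -1.41 ± 0.29 (0.0118), Vha36-1 by -1.10 ± 0.31 (0.0345) and Vha26 by -1.03 ± 0.28 (0.0323). On LB_pos the difference was -0.0013 ± 0.29 for Vha13, -0.36 ± 0.29 for VhaPPA1-1, -0.10 ± 0.31 for Vha36-1 and 0.02 ± 0.28 for Vha26, none of them called. With array a the LB_neg difference was -1.27 for Vha13 (limma adjusted p = 0.284), -1.49 for VhaPPA1-1 (0.225), -0.84 for Vha36-1 (0.556) and -1.44 for Vha26 (0.441). On LB_pos it was then 0.14 for Vha13, -0.44 for VhaPPA1-1, 0.16 for Vha36-1 and -0.39 for Vha26, so the sign for Vha13, Vha36-1 and Vha26 depended on array a. VhaPPA1-1 was at 4126 on LB_pos and 1966 on LB_neg, against 6692, 6043, 4723 and 5206 in EC_pos, with both larval arrays below the culture. Its other probe set had the opposite sign on LB_neg, 0.76 with all arrays. On LB_neg VhaSFD differed by -1.16 (limma adjusted p = 0.0682) and Vha14-1 by -0.76 (limma adjusted p = 0.176) without array a, and neither passed. With it the differences were -0.66 (limma adjusted p = 0.788) for VhaSFD and -0.57 (limma adjusted p = 0.701) for Vha14-1.

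**Figure D3:**
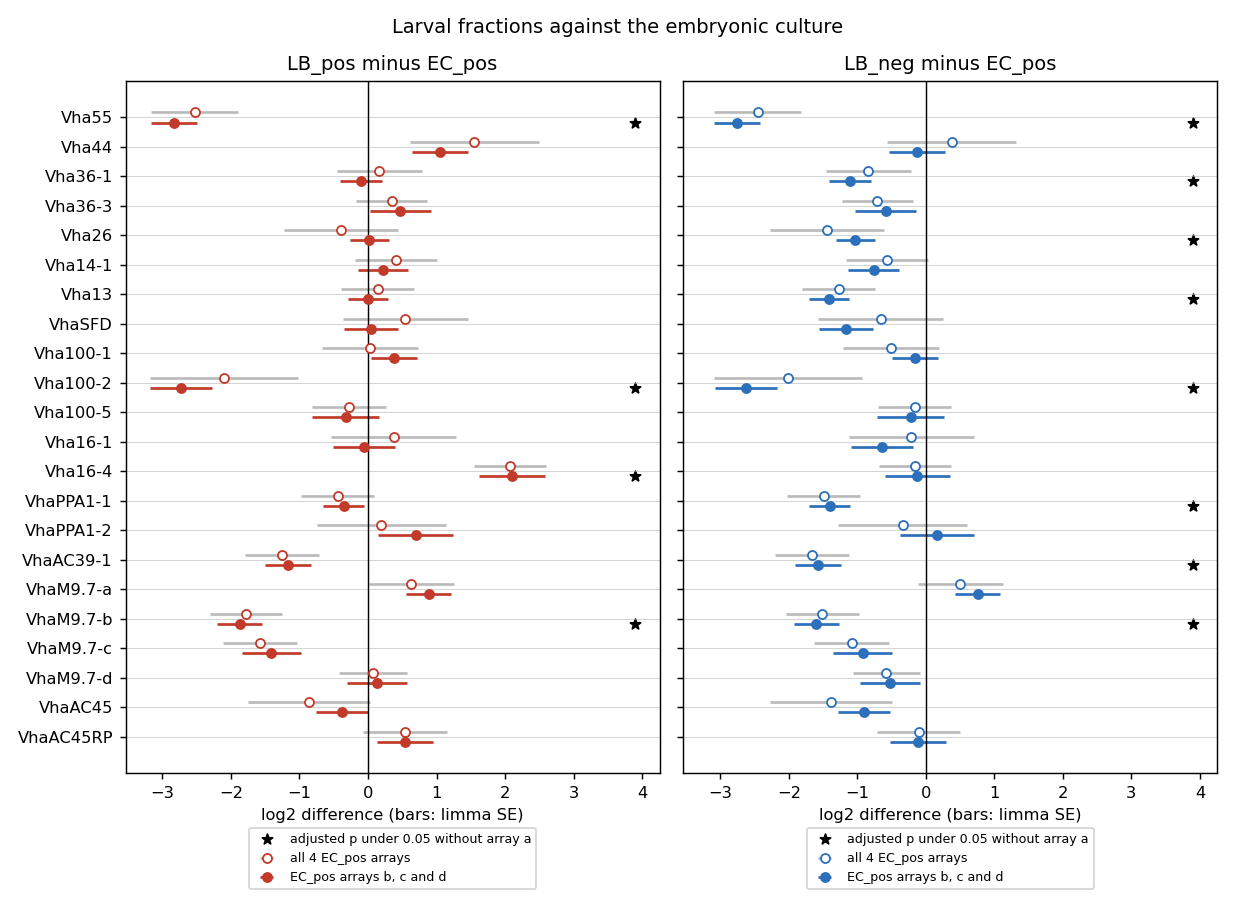
LB_pos minus EC_pos (left) and LB_neg minus EC_pos (right) for the 22 tested Vha genes, as log2 differences with limma's SE, using all 4 EC_pos arrays (open) or arrays b, c and d (filled). Stars mark an adjusted p under 0.05 without array a, for 4 genes on LB_pos and 8 on LB_neg, and both panels share the EC_pos arrays.

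Among the genes brighter on LB_pos than in the culture, Vha16-4 and Vha44 were above all 4 EC_pos arrays, where 34% of tested genes were. Vha16-4, a further c proteolipid gene, was at 428 on LB_pos and 49.3 on LB_neg, against 68.4, 45.5, 84.5 and 49.8 in EC_pos. Of the 6 arrays LB_pos held its highest value, through which it entered the test. Its LB_pos difference was 2.10 without array a and 2.07 with it, given as a description because the filter fixed its direction. Vha44 was at 3723 on LB_pos, against 394, 1232, 1826 and 2484.5 in EC_pos, and was not called (1.04 ± 0.41, limma adjusted p = 0.121 without array a, and 1.55 ± 0.94, limma adjusted p = 0.504 with it).

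Markers of other cell types differed strongly between larval tissue and culture. The 4 muscle markers with a probe set summed to 195 on LB_pos, 321 on LB_neg and between 2102 and 12550.5 in EC_pos, and all 4 were called lower on LB_pos without array a. The 6 epidermis and trachea markers summed to 2090.3 on LB_pos, 1111 on LB_neg and between 5148 and 64542 in EC_pos. Without array a, 4 of them were called lower on LB_pos. Of 3 Malpighian tubule markers, from the renal epithelium known for its surface proton pump, 0 were above 197.35 on either larval array and at most 2 on any EC_pos array. None of these markers was listed at 0. The muscle markers up, Mlc1 and Tm2 and the epidermis markers Cpr47Eb and grh passed the filter through EC_pos alone. Their direction was thus set in part by the filter. On LB_neg without array a, all 4 muscle and 5 of 6 epidermis and trachea markers were called lower, and 5 of 6 neuroblast markers were called higher, with a median of 2.35. Of 7 tested neuron markers, 3 were called higher on LB_pos, and on LB_neg 1 (elav) was called higher and 1 (Rdl) lower. The fat body gene apolpp was called lower on both larval arrays. Glia had 1 of 7 called higher on each larval array (gcm). Hemocytes had 1 of 5 higher and 1 lower on LB_pos and 2 higher on LB_neg. The glial gcm passed the filter on the larval arrays alone and the neuroblast marker ase on LB_neg alone. All marker calls given here leave out array a. Without it, 14.6% of tested genes were called on LB_pos and 24.2% on LB_neg. With all 4 EC_pos arrays, no marker gene was called on LB_pos. The part of these cells in the larval Vha values was not tested.

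Within EC_pos, array a departed from b, c and d in both directions. It was at least 1 log2 unit above the mean of b, c and d for 5 Vha genes (19% of tested genes) and below it for 6 (21.9%). Vha26 had 24844 on array a, with 7217 to 8904 on the others, and VhaAC45 at 7433 against 1532 to 2622. Vha44 was at 394 on array a against 1232 to 2484.5, and Vha16-1 at 2134 against 4259 to 9834. The c'' genes of the ring were instead higher on array a, by 0.33 for VhaPPA1-1 and 2.01 for VhaPPA1-2, and the median over the 22 genes was 0.05. VhaPPA1-2, among the 5 genes above, passed the filter through array a alone, so its direction was set in part by the filter.

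**Figure D4:**
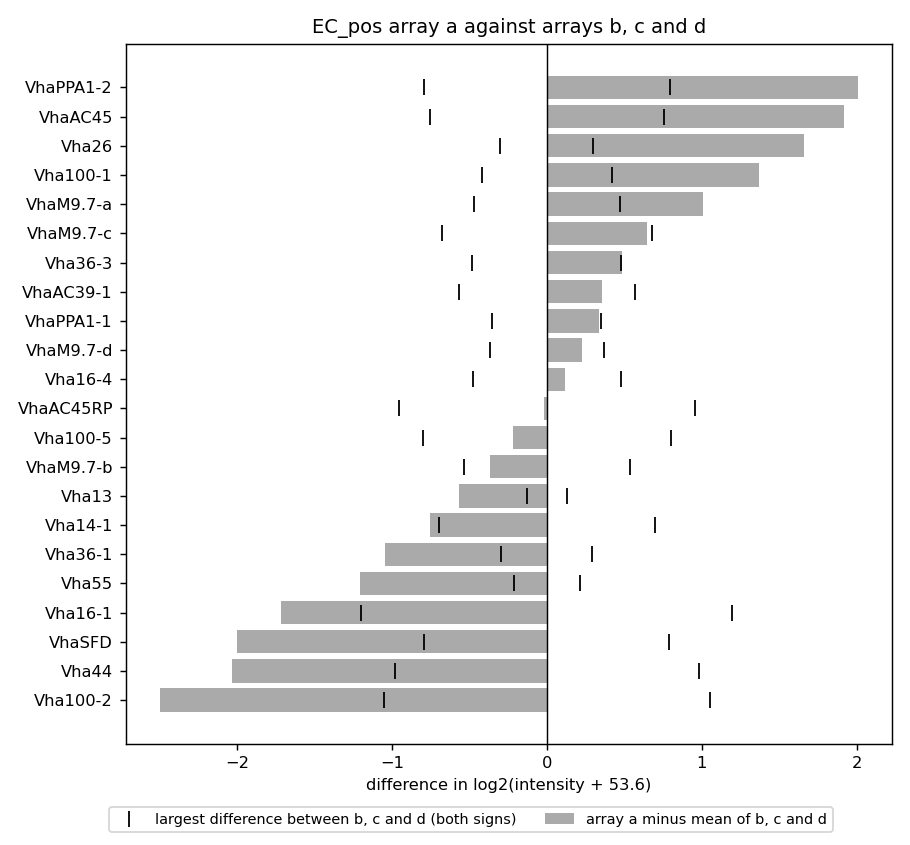
EC_pos array a minus the mean of arrays b, c and d (grey bars, difference in log2 of intensity plus 53.6) for the 22 tested Vha genes, sorted by value. Black ticks mark, in both signs, the largest difference between b, c and d. Bars run from -2.49 for Vha100-2 to 2.01 for VhaPPA1-2, which passed the filter through array a alone.

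The 7 Vha genes below the filter stayed under 197.35 on every array and were not tested. Vha100-4, a subunit a gene, was at 163 on LB_pos, 28.6 on LB_neg and 27.0, 58.5, 14.9 and 73.2 in EC_pos, the highest LB_pos value of the 7. In the RefSeq gene order it lies next to Vha100-2, which had its lowest value on LB_pos and its brightest arrays in EC_pos. Vha16-2 was between 41.4 and 162 over the 6 arrays and Vha16-5 between 46.3 and 91.7. VhaAC39-2 and Vha36-2 stayed between 20.2 and 99.8, and Vha14-2 and Vha68-3, a paralog of the A subunit, between 4.2 and 46.6. Of the tested but dim genes, VhaPPA1-2, which has 1 gene between it and VhaPPA1-1, was at 114 on LB_pos and 61.9 on LB_neg, and at 362 on array a against 32.2 to 95.3 on b, c and d.

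Genes that work with the pump were counted for comparison. In the list of acidification and lysosome genes, 4 of 19 tested were at least 1 unit higher on LB_pos than on LB_neg and 1 lower, with a median of 0.42. Cln3, a lysosomal membrane protein, was at 244 on LB_pos and 32.6 on LB_neg (1.79), and Hexo2, a hexosaminidase, at 1012 on LB_pos and 324 on LB_neg. At the other end ClC-b, a chloride and proton exchanger of lysosomes, was at 680 on LB_pos and 1987 on LB_neg (-1.48), and Npc1a, a sterol transporter, at 786 on LB_pos and 1377 on LB_neg (-0.77). Against the culture without array a, 1 of these 19 was called higher on LB_pos (LManII, a lysosomal mannosidase, 1.87, limma adjusted p = 0.0109) and 0 lower. On LB_neg without array a, 1 was called higher (ClC-b) and 2 lower (CtsL1 and Sap-r). Of all tested genes, 14.6% were called on LB_pos and 24.2% on LB_neg without that array. With all 4 EC_pos arrays, none of the 19 was called on LB_pos.

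Of 5 tested transporters that fill vesicles or carry anions, 2 were higher on LB_pos than on LB_neg by at least 1 unit. Portabella (prt) was at 532 on LB_pos and 44.5 on LB_neg (2.58) and the monoamine carrier Vmat at 3109 on LB_pos and 773 on LB_neg (1.94). Of these, prt passed the filter through LB_pos alone, so its direction was set in part by the filter. VGAT, the GABA carrier, was level at 738 on LB_pos and 739.7 on LB_neg. Among 12 tested genes of the mitochondrial ATP synthase, a related rotary enzyme that runs the other way to make ATP, 0 differed by 1 unit between the larval arrays and the median was 0.27. Of 8 tested sodium and calcium pumps and proton exchangers, 1 was higher (nrv3, a sodium pump subunit of neurons, 1.44) and 1 lower (PMCA, a calcium pump, -1.29), with a median of -0.36. Against the culture without array a, the calls on LB_pos among the transporters were 1 higher (prt, which had to be high there) and 1 lower (Picot). Among the ATP synthase genes they were 1 higher (ATPsynC) and 1 lower (ATPsynB), and among the pumps and exchangers 0 higher and 2 lower (nrv1 and SERCA). Of all tested genes, 5.28% were called higher and 9.3% lower in that comparison. With all 4 EC_pos arrays, no gene of these 3 lists was called on LB_pos. No difference between the Vha genes and any of these lists was tested.

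**Figure D5:**
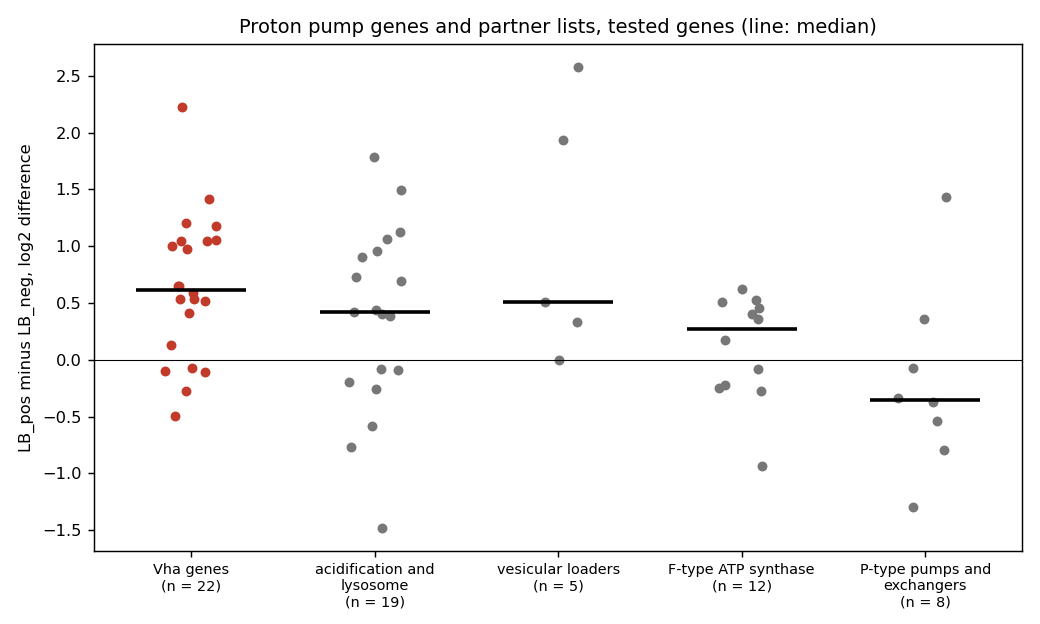
LB_pos minus LB_neg (y axis, difference in log2 of intensity plus 53.6) for the tested Vha genes (red) and the tested genes of the 4 partner lists (grey), 1 point per gene, with the median as a line. Medians are 0.62 for the Vha genes and 0.42, 0.51, 0.27 and -0.36 for the lists from left to right.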

How the data were processed

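The authors deposited 1 intensity per probe set on a linear scale for 14010 probe sets of 6 arrays, the software, scanner and genome build being not given in the sources used here. The mean without the extreme 2% at either end was between 500.063 and 500.083 on each array, so deposited values were taken as scaled. After leaving out 44 control probe sets, 13966 remained. Of these, 12443 had a single gene in the platform annotation, 327 several and 1196 none. Symbols were updated or kept through gene IDs for 12394. Of the named genes, 1209 had more than 1 probe set.

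A model of 3 group means was fitted to 9635 probe sets with limma 3.58.1 in R 4.3.3. It used a variance trend and Benjamini-Hochberg adjustment over all of them (3 residual and 3.74 prior degrees of freedom). The code was also run on simulated data in which every array had the scatter of arrays b, c and d. That run was no check of array a or of the spread assumed for the larval groups. All adjusted p-values are from limma. Samples were grouped by their titles. All Vha genes were eligible for naming, and from each partner list the genes with the largest differences. The members and lists were chosen with earlier results of these data known. Alternatives tried were the 10th or the 50th percentile as offset, a floor, no filter, quantile or median scaling, no variance trend, averaged probe sets and leaving out each EC_pos array. A planned search of promoter sequences was not run, and no sequence is shown. Figures were drawn with matplotlib 3.10.9.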

Additional observations from a re-analysis of the deposited data

Results flagged for a closer look

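Among the 22 tested Vha genes, 2 had an EC_pos array that passed Dixon's criterion at the 95% level on the log2 scale, array a in both cases. The intensities given next are linear, a scale on which Vha55 does not pass the criterion. Vha26 had 24843.5 on array a, with 7217 to 8904 on the rest. Vha55 had 768.2 on array a, with 1686 to 1962 on the rest. Chance gives such a gap in about 1 of 20 groups of 4.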

How the results depend on the processing

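The calls against the culture depended on array a. Without each EC_pos array in turn, the Vha genes called ranged from 0 to 4 on LB_pos and from 0 to 8 on LB_neg, the higher count each time without array a, and all genes called on LB_pos ranged from 0 to 1151, where 3 were called with all arrays. Every other setting called 0 Vha genes, and all genes called on LB_pos came to 11 and 0 with the offset at the 10th and 50th percentile, 5 without a filter, 6 after quantile normalization and 5 with averaged probe sets. Leaving out single EC_pos arrays moved the median Vha difference from EC_pos between -0.044 (without array d) and 0.15 on LB_pos and between -0.83 and -0.63 on LB_neg. On LB_neg the median was -0.57 with the offset at the 50th percentile, -0.84 with a floor and -0.50 without a filter. On LB_pos it was -0.11 with a common median, a sign opposite to 0.11. The larval median of LB_pos minus LB_neg was 0.76 with a floor and 0.32 with a common median. The Vha genes at least 1 unit higher were 5 with the offset at the 50th percentile and 2 with a common median, Vha16-4 among them each time. The alternatives for this count and for genes below all EC_pos arrays were added after the data were seen. The cause was not tested. Vha genes below all EC_pos arrays stayed between 6 and 9 on LB_pos and between 11 and 15 on LB_neg. No paired analysis was possible because the groups share only the letter a.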
